A study of Mus musculus with 2 samples.

Results

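The naive pluripotency transcription factors are a set of regulatory proteins that mark mouse embryonic stem cells (ESCs) in the state of the preimplantation epiblast or help to hold them there. They were taken here as 10 genes, Nanog, Zfp42, Esrrb, Klf2, Klf4, Klf5, Tfcp2l1, Nr0b1, Prdm14 and Tbx3, of the 45777 genes in the deposited expression table, and all 10 were found by symbol. The set was selected on the difference between the same 2 libraries that are described below, so its direction and size are given as a description and carry no test. RNA-seq of polyadenylated RNA was performed on teratomas of E14 and of E14-Sox2TA/WT cells, with 1 library each, which addressed how the Sox2 T258A change affects differentiation in vivo. E14 is a male mouse ESC line that was cultured with serum and leukemia inhibitory factor (LIF). E14-Sox2TA/WT is its derivative with threonine 258 of Sox2 changed to alanine on 1 allele by CRISPR/Cas9, grown from single cells, and kept in serum, LIF and the inhibitors PD0325901 and CHIR99021, which were withdrawn before use. A teratoma is a tumor of mixed tissues that ESCs form in a host. In both groups the cells were placed under the skin of 3 BALB/c-nu mice and the teratomas were taken at 14 days. The sources do not state whether a library holds 1 teratoma or several, and part of the label text speaks of an ESC line as the source of RNA. Host tissue was not separated from graft tissue.

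The libraries held 50529171 and 49030281 reads on genes in E14 and E14-Sox2TA/WT, respectively. With 1 library per group, no difference has a replicate check. The ranges in parentheses are 95% intervals (Clopper-Pearson, carried to the scale of the value) that cover the counting error of these libraries only, not variation between teratomas. Levels are TPM values (transcripts scaled to a fixed total per library), which are corrected for transcript length, and a fold is the quotient of the TPM values. A gene counted as a differentially expressed gene (DEG) when its fold exceeded 2 and its TPM reached 10 in at least 1 library. The single-copy Y chromosome genes (Eif2s3y, Ddx3y, Uty and Kdm5d) held 5453 reads in E14 and 0 in E14-Sox2TA/WT. The E14 library also had more genes without a read, since 138 genes were at 0 there with at least 100 reads in E14-Sox2TA/WT, against 13 genes in the reverse. The part of these features in the results below was not tested.

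In ESCs the naive factors act together with Sox2 and Pou5f1 (Oct4), bind one another's enhancers and are fed by LIF through Stat3 and by Wnt signaling through relief of Tcf7l1 repression. They are switched off as the epiblast implants, and several are used again in germ cells. Klf5 and Tbx3 also work in differentiated tissues, Klf5 in the basal cells of epithelia and Klf4 in their maturing layers, and Tbx3 in limb and other organs. In a teratoma, transcripts of these genes can therefore come from cells that are still ESC-like or from differentiated cells. RNA from whole tissue does not show whether a lower level means fewer cells of a kind or less RNA in each.

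Of the 10 genes, 9 had a higher value in E14-Sox2TA/WT and 1, Klf5, a lower one. Of these, 6 were DEGs with higher expression (Nanog, Zfp42, Esrrb, Klf2, Klf4 and Tfcp2l1) and none was a DEG with lower expression. Over all 11578 genes that met the TPM limit, 10.8% were higher by the same rule and 18.7% were lower. Since the set was chosen for this contrast, nothing is read from that difference in shares. The median log2 ratio of the 10 genes, with 1 added to each TPM, was 2.72, with single genes between -0.62 and 4.14, and 9 of 10 were above 0. The median of the 11578 genes was -0.18, with 41.0% above 0, and 2.31% of them lay at or above the median of the naive factors. The summed level of the 10 genes was 66.9 TPM in E14 and 363 TPM in E14-Sox2TA/WT, a 5.42-fold difference. Klf5 alone supplied 46.6% of that sum in E14 and 5.50% in E14-Sox2TA/WT, and the other 9 genes together went from 35.7 to 343 TPM, a 9.60-fold difference.

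**Figure D1:**
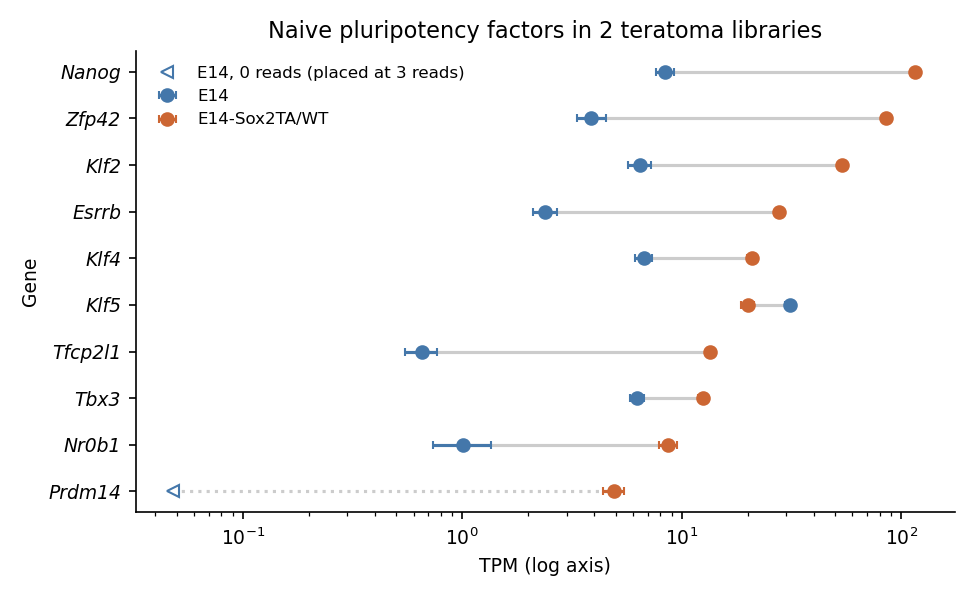
Level of each naive pluripotency factor in TPM (log axis) in the E14 (blue) and E14-Sox2TA/WT (orange) teratoma libraries, 1 library each, with 95% counting intervals; the open triangle places Prdm14, which had 0 reads in E14, at the level of 3 reads. Klf5 is the only gene whose orange point (20.0 TPM) lies to the left of its blue point (31.2 TPM), and the widest measured gap is that of Zfp42, from 3.88 to 85.2 TPM.

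Nanog, a homeodomain protein that sustains ESC self-renewal when LIF is low, lies on chromosome 6 (GRCm38.p6, 122707489 to 122714633, plus strand). It had 447 reads in E14 and 6852 in E14-Sox2TA/WT. Its level was 8.37 TPM (7.62 to 9.19) and 116 TPM (113 to 119), a 13.8-fold difference (12.6 to 15.3). Among the genes with a read in each library, Nanog moved from the 54.8 to the 95.4 percentile. These sets differ, with 24603 genes in E14 and 27830 in E14-Sox2TA/WT, so percentiles of the libraries are not on 1 scale. Nanog was the most abundant of the 10 in E14-Sox2TA/WT.

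Zfp42 (Rex1), a zinc finger protein that is widely used as a reporter of the naive state, is on chromosome 8 (43295067 to 43307009, minus strand). The reads numbered 170 in E14 and 4247 in E14-Sox2TA/WT, corresponding to 3.88 TPM (3.32 to 4.51) and 85.2 TPM (82.7 to 87.8). The fold of 22.0 (18.8 to 25.8) was the largest among the members with reads in both libraries. The pseudogene Zfp42-ps1 on chromosome 15 changed in the same direction, from 22 to 1186 reads and from 0.622 to 30.8 TPM, a 49.6-fold difference (32.6 to 79.4). In the GENCODE vM21 transcripts, 37.2% of the 50-nt stretches of Zfp42-ps1 also occur in Zfp42, while the shared stretches make up 8.52% of Zfp42. Reads of this part cannot be assigned with certainty, so the pseudogene's value is uncertain and that of Zfp42 less so. Such sharing was 4.53% for Nanog and at most 0.927% for the other 8 genes. For Nanog the gene that shared most was Nanog-ps1, with 2.69% of the Nanog stretches.

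Esrrb, an orphan nuclear receptor that occupies many Nanog and Pou5f1 sites, is on chromosome 12 (86361117 to 86521628, plus strand). It went from 244 to 2983 reads and from 2.39 TPM (2.10 to 2.71) to 27.8 TPM (26.8 to 28.8), an 11.6-fold difference (10.2 to 13.3). Tfcp2l1, a CP2-family factor downstream of both LIF and Wnt signaling, is on chromosome 1 (118627923 to 118685168, plus strand). Its 146 and 3359 reads gave 0.653 TPM (0.551 to 0.767) and 13.5 TPM (13.1 to 13.98), a 20.7-fold difference (17.5 to 24.6). Tfcp2l1 therefore showed nearly the fold of Zfp42 at a much lower level.

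Nr0b1 (Dax1), a nuclear receptor without the usual DNA-binding domain that binds Pou5f1 and restrains its activity, is on the X chromosome (86191775 to 86195947, plus strand). It had 44 reads in E14 and 420 in E14-Sox2TA/WT, or 1.01 TPM (0.733 to 1.35) and 8.69 TPM (7.87 to 9.56). The fold of 8.61 (6.31 to 12.0) was well above 2, but the level stayed under 10 TPM in both libraries. Prdm14, a PR domain protein that protects naive cells from FGF signaling and is needed for primordial germ cells, is on chromosome 1 (13113428 to 13127163, minus strand). It had 0 reads in E14 and 342 in E14-Sox2TA/WT, with 4.91 TPM (4.40 to 5.45). Taking 3 reads as the most that a count of 0 allows, its level was at least 102-fold higher. Both genes were thus left out of the DEGs by the TPM limit and not by their folds.

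The 3 Krüppel-like members did not move together. Klf2, a Klf factor that matters most for naive cells held under Mek inhibition, is on chromosome 8 (72319062 to 72321654, plus strand) and went from 282 to 2610 reads. Its level was 6.44 TPM (5.71 to 7.23) in E14 and 53.5 TPM (51.4 to 55.6) in E14-Sox2TA/WT, an 8.31-fold difference (7.34 to 9.43). Klf4, a reprogramming factor that responds to LIF and Stat3, is on chromosome 4 (55527137 to 55532475, minus strand) and had 492 and 1704 reads. Its level was 6.71 TPM (6.13 to 7.33) and 20.8 TPM (19.9 to 21.8), a 3.10-fold difference (2.81 to 3.44). Klf2 and Klf4 were at overlapping levels in E14, and only in E14-Sox2TA/WT was Klf2 the higher.

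Klf5, on chromosome 14 (99298691 to 99313412, plus strand), had 1298 reads in E14 and 927 in E14-Sox2TA/WT. It was the most abundant member in E14 at 31.2 TPM (29.5 to 33.0) and stood at 20.0 TPM (18.7 to 21.3) in E14-Sox2TA/WT. Its level was 1.56-fold lower (1.44 to 1.70), which does not reach the limit of 2. Its log2 ratio lay between -0.64 and -0.42 under the scalings and pseudocounts tried, of which the pseudocounts cannot change its direction. Tbx3, a T-box repressor, is on chromosome 5 (119670534 to 119684724, plus strand) and had 702 and 1599 reads. The 6.26 TPM (5.80 to 6.74) and 12.5 TPM (11.9 to 13.1) gave a fold of 1.996 (1.83 to 2.18), just under the limit and therefore not a DEG, although it passed 2 under FPKM and each of the other scalings. The nearest gene on the other side of the limits was Klf4, with its fold of 3.10. The antisense transcripts Tbx3os2 and Tbx3os1 went the other way, from 49 to 5 and from 19 to 13 reads. The interval of Tbx3os2 lies 0.364 kb from that of Tbx3, without overlap. Whether counting used the strand is not given, so reads from any stretch where Tbx3 and Tbx3os1 overlap cannot be told apart.

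The order of the levels differed between the libraries. In E14 it ran from Klf5 through Nanog, Klf4, Klf2, Tbx3, Zfp42, Esrrb, Nr0b1 and Tfcp2l1 to Prdm14. The intervals of Klf4, Klf2 and Tbx3 overlapped, as did those of Nr0b1 and Tfcp2l1. In E14-Sox2TA/WT the order was Nanog, Zfp42, Klf2, Esrrb, Klf4, Klf5, Tfcp2l1, Tbx3, Nr0b1 and Prdm14. Only Klf4 with Klf5 and Tfcp2l1 with Tbx3 overlapped there. Among all genes with a read in the respective library, Klf5 stood at the 77.1 percentile in E14 and the next, Nanog, at 54.8. In E14-Sox2TA/WT, 8 of the 10 lay at or above 67.3, the percentile of Tbx3, with Nanog and Zfp42 at 95.4 and 93.7.

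**Figure D2:**
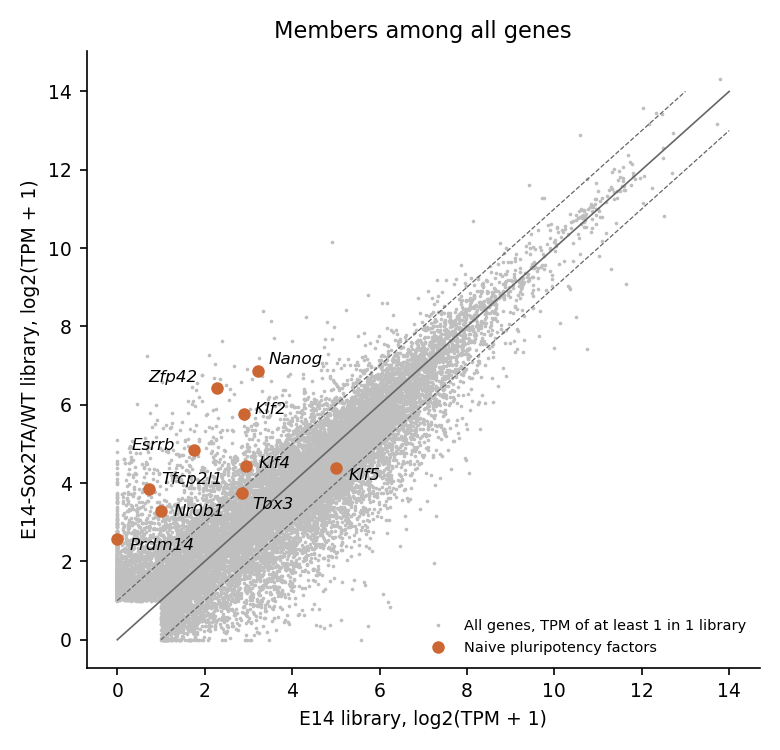
Level as log2(TPM + 1) of each gene that reached 1 TPM, in the E14 library (x axis) and the E14-Sox2TA/WT library (y axis); the solid line marks equal values, the dashed lines a 2-fold difference of TPM + 1, and the orange points the naive pluripotency factors. The 7 orange points with log2 ratios from 2.27 (Nr0b1) to 4.14 (Zfp42) stand clear above the upper dashed line, Klf4 lies closer to it, Tbx3 lies just under it and Klf5 lies below the solid line.

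Promoter windows were examined for what the genes share in sequence. RefSeq windows for GRCm38.p6 were found for 7 of the 10 genes (9 windows), and none was used for Klf5, Prdm14 and Tbx3. The 250 bases before the annotated transcript start are printed below 5′ to 3′ for the 4 genes with a window whose fold was above 10, on the strand of the gene, with motif matches in capitals.
Nanog: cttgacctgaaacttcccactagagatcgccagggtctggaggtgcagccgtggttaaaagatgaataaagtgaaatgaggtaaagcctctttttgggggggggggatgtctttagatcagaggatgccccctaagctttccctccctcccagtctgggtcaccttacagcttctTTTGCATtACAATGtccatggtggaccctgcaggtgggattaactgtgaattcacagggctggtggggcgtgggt
Zfp42: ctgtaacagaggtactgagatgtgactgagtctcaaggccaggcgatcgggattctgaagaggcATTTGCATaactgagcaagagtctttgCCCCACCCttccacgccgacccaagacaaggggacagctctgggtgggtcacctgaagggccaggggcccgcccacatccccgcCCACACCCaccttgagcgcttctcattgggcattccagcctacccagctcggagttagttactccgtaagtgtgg
Esrrb: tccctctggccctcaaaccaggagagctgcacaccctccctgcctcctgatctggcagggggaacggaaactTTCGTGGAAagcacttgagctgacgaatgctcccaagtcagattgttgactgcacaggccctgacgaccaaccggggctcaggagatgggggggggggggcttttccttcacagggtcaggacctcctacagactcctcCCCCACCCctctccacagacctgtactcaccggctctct
Tfcp2l1: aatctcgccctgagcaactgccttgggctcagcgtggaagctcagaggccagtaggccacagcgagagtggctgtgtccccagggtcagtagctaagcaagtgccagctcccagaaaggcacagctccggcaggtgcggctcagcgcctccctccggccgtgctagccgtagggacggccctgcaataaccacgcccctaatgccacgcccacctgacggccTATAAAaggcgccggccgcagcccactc
The Nanog window is chr6:122707239-122707488 (plus strand), the Zfp42 window chr8:43307010-43307259 (minus strand), the Esrrb window chr12:86360867-86361116 (plus strand) and the Tfcp2l1 window chr1:118627695-118627944 (plus strand). The Tfcp2l1 window runs up to a transcript start inside the gene interval given above, which begins at 118627923. Its last bases therefore lie within that interval.

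Motifs were searched on both strands, and positions are counted back from the transcript start to the first base of the match on the strand of the gene. Nanog and Esrrb each had a second window from another annotated start, and their positions are those in the printed window unless stated. The octamer ATGCAAAT, bound by Pou5f1, occurred in 1.60% of all 32851 windows and among the naive factors in Zfp42, at -186, read there as ATTTGCAT. Its 7-base core ATGCAAA, added after the windows had been seen, occurred in 4.12% of all windows and in Nanog (TTTGCAT at -75) and Zfp42, where it lies inside the full octamer. The Nanog match was followed 1 base later by ACAATG at -67, one of the Sox motifs searched. Sox motifs (ACAAAG or ACAATG) were in 25.2% of all windows and in Nanog and Nr0b1 (-101). Klf motifs (CCACACCC or CCCCACCC) were in 11.8% of all windows and in Zfp42 (-159 and -75) and Esrrb (-39). The Stat motif TTCNNNGAA was in 7.02% of all windows and in Esrrb (-178), and TATAAA was in 12.4% and in Tfcp2l1 (-28) and Nr0b1 (-32). In the second Nanog window the same octamer core and Sox matches lay at -151 and -143, and the second Esrrb window held CCCCACCC at -105. The Esrrb motif TCAAGGTCA was in 0.387% of all windows and in none of these 9. Klf2 and Klf4 held none of the motifs, and their windows were the richest in G and C, at 71.2% and 74.0% against a median of 52.4% over all windows. A match only states that these letters are in the window, and no motif was common to the genes that were higher in E14-Sox2TA/WT.

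The core partners of the naive factors differed in direction. Sox2, the edited gene, had 14585 reads in E14 and 8623 in E14-Sox2TA/WT, at 246 and 130 TPM, 1.89-fold lower (1.84 to 1.94). The files do not separate its alleles, so the edit itself is not checked by this value, and Sox2 is also expressed in neural and other epithelia. Pou5f1, which is largely restricted to pluripotent and germ cells, went from 621 to 11054 reads and from 19.0 to 304 TPM, a 16.0-fold difference (14.7 to 17.4). The level of each naive factor was therefore also set against Pou5f1 within the same library, which does not depend on how the libraries are scaled.

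Relative to Pou5f1, the naive factors formed a graded series. Nanog stood at 44.0% of the Pou5f1 level in E14 and at 38.1% in E14-Sox2TA/WT, and the fold of Nanog was 0.866 times that of Pou5f1 (0.764 to 0.981). Zfp42 was at 20.4% and 28.0%, with a fold 1.37 times that of Pou5f1 (1.16 to 1.63). Tfcp2l1 was at 3.43% and 4.44%, with a quotient of 1.30 (1.08 to 1.56). The fold of Nanog was the nearest to that of Pou5f1 among the members with reads in both libraries. Esrrb had 0.727 times (0.624 to 0.848) the fold of Pou5f1, Nr0b1 0.539 times (0.391 to 0.743) and Klf2 0.520 times (0.449 to 0.602). Their share of the Pou5f1 level was lower in E14-Sox2TA/WT by counting error limits, although each of the 3 was itself higher, with folds from 8.31 to 11.6.

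Klf4, Tbx3 and Klf5 lay far from the others on this scale. Klf4 was at 35.3% of the Pou5f1 level in E14 and at 6.85% in E14-Sox2TA/WT, 5.15-fold lower relative to Pou5f1. Tbx3 was at 32.9% and 4.11%, 8.01-fold lower. Klf5 was at 164% and 6.56%, 25.0-fold lower (22.2 to 28.1), so that it exceeded Pou5f1 in E14 and was a small fraction of it in E14-Sox2TA/WT. Prdm14 was at 1.61% in E14-Sox2TA/WT, and its fold was at least 6.39 times that of Pou5f1.

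**Figure D3:**
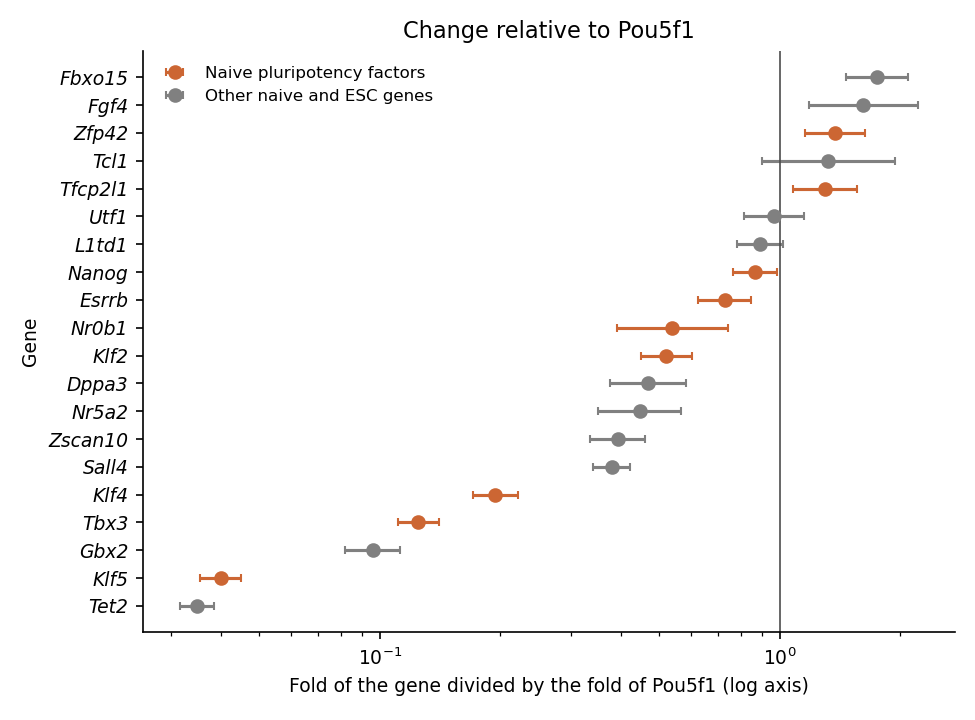
Fold of each gene between the libraries divided by the fold of Pou5f1 (log axis, with 95% counting intervals), for the naive pluripotency factors (orange) and the other naive and ESC genes (grey) that had reads in both libraries; 1 means the same fold as Pou5f1. Zfp42 and Tfcp2l1 lie to the right of 1, Nanog just to the left of it, and Klf4, Tbx3 and Klf5 lie at 0.194, 0.125 and 0.0400.

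Other genes of the naive and ESC state showed a like spread. Of 12 such genes, 11 had a higher and 1 a lower value in E14-Sox2TA/WT, and the median log2 ratio was 2.99. The TPM limit was met by 11, of which 9 were DEGs with higher expression and 0 with lower. Over all genes past this limit, 10.8% were higher and 18.7% were lower. Like the members, this list was chosen with earlier results of these data known, so nothing is read from the difference in shares. Fbxo15, a Pou5f1 and Sox2 target, went from 3.65 to 102 TPM, with a fold 1.75 times that of Pou5f1. Utf1, an ESC chromatin factor, had 0.967 times the fold of Pou5f1 (0.813 to 1.15), an interval that includes 1. Zfp296 had 0 reads in E14 and 662 in E14-Sox2TA/WT. Toward the other end, Gbx2, which is also used in the midbrain and hindbrain, had 0.0959 times the fold of Pou5f1. The demethylating enzyme Tet2 went from 14.9 to 8.29 TPM and was the gene with the lower value. Tet2 was the lowest of the list on this scale, at 0.0348 times the fold of Pou5f1. The list therefore held genes near both ends of the range covered by the naive factors.

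Genes of the signaling inputs to the naive factors had values in both directions. Over all genes past the TPM limit, 41.0% had a log2 ratio above 0, 10.8% were higher DEGs and 18.7% were lower DEGs. Of 11 LIF and Stat3 genes, 5 had higher and 6 lower values, and the median log2 ratio was -0.03. The LIF receptor Lifr (5.18 to 14.8 TPM) and the Stat3 target Pim1 (14.03 to 36.2 TPM) were DEGs with higher expression, and the kinase Jak2 (38.0 to 11.9 TPM) was one with lower expression. Stat3 itself was at 42.1 and 33.3 TPM, the phosphatase gene Ptpn11, the most abundant of the list, was at 74.9 and 42.0 TPM, and Lif, the gene of this list with the largest log2 ratio, was at 0.260 and 2.86 TPM. Of 8 genes of the Wnt arm, 7 had lower values and the median was -0.45. The repressor Tcf7l1 (25.8 to 8.94 TPM) and the β-catenin destruction genes Apc (72.0 to 18.1 TPM) and Gsk3b (49.3 to 24.2 TPM) were lower DEGs, while Ctnnb1, β-catenin, was at 670 and 574 TPM. Tcf7 was a higher DEG (2.55 to 16.3 TPM), although its reads, 452 and 1510, differed less than its TPM.

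Genes for leaving the naive state had values in both directions. Over all genes past the TPM limit, the median log2 ratio was -0.18 and 41.0% were above 0. Of those genes, 10.8% were higher DEGs and 18.7% lower DEGs. The 2 lists below had medians near that of all genes, so nothing particular to them is read from these counts. Among 10 exit genes, 3 had higher and 7 lower values with a median of -0.15, and the DEGs were Etv5, an FGF-responsive Ets factor, higher (19.5 to 72.7 TPM), and Tcf7l1 and Lztr1 lower. Zfp706, the most abundant of them, was at 116 and 103 TPM. Among 10 formative and primed genes, 4 had higher and 6 lower values with a median of -0.13. The DNA methyltransferase Dnmt3b was a higher DEG (13.6 to 66.1 TPM) and Sall2 a lower one (82.6 to 29.4 TPM). Fgf5, a marker of the implanting epiblast, stood at 3.88 and 7.79 TPM, and Otx2, which is also a forebrain gene, at 45.2 and 36.4 TPM.

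The Klf family allowed the members to be compared with relatives of the same DNA-binding type. The 3 members Klf2, Klf4 and Klf5 summed to 44.4 TPM in E14 and 94.3 TPM in E14-Sox2TA/WT, a 2.12-fold difference. Klf5 made up 70.4% of that sum in E14 and 21.2% in E14-Sox2TA/WT. The 14 other Klf genes summed to 174 and 190 TPM, a 1.10-fold difference, with 7 higher and 7 lower values and a median log2 ratio of -0.03. Of these, 10 met the TPM limit, past which 10.8% of all genes were higher DEGs and 18.7% lower DEGs. There were 3 higher DEGs, namely Klf6 (18.1 to 38.6 TPM), Klf9 (8.58 to 22.7 TPM) and Klf10 (19.2 to 41.3 TPM). A further 3 were lower DEGs, namely Klf7 (24.1 to 7.30 TPM), Klf12 (16.2 to 4.50 TPM) and Klf15 (21.9 to 5.84 TPM). Klf3, Klf11, Klf13 and Klf16 passed 10 TPM without passing the fold limit. The 8.31-fold difference of Klf2 exceeded that of each of these 10 relatives, the widest of which was the 3.76-fold lower level of Klf15. The 3.10-fold difference of Klf4 was smaller than those of Klf7 (3.30-fold lower), Klf12 (3.59-fold lower) and Klf15. Since the members were selected on this contrast, nothing is read from these comparisons. In E14-Sox2TA/WT, Klf2 was the most abundant of all 17 Klf genes, ahead of Klf10.

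**Figure D4:**
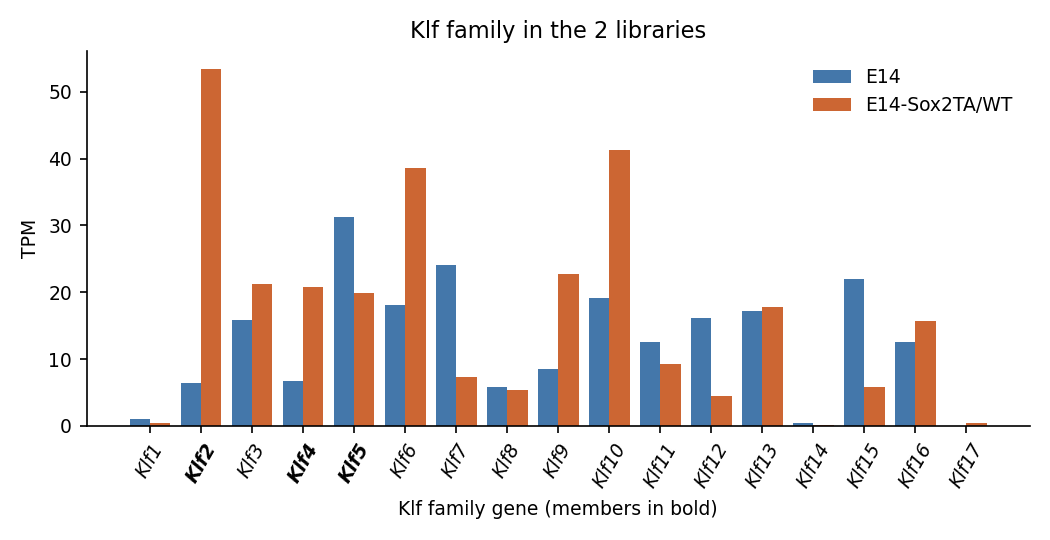
Level in TPM of the 17 Klf family genes in the E14 (blue) and E14-Sox2TA/WT (orange) teratoma libraries, 1 library each and without error bars, with the 3 naive pluripotency factors in bold. The tallest bar is Klf2 in E14-Sox2TA/WT at 53.5 TPM, next to 6.44 TPM in E14, and the tallest blue bar is Klf5 at 31.2 TPM.

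Relatives of the other members had values in both directions, much as all genes did. A log2 ratio above 0 was found for 41.0% of all genes past the TPM limit. Among all genes that reached 1 TPM in either library it was found for 47.5%. Only 7 of the relatives met the TPM limit. Of 26 paralogs of Zfp42, Esrrb, Tfcp2l1, Nr0b1, Prdm14 and Tbx3, 11 had higher and 15 lower values with a median log2 ratio of -0.09. Esrrg, a receptor of neural and muscle tissue, was at 6.95 and 1.58 TPM, opposite in direction to Esrrb, and Esrra, the ubiquitous relative, was at 12.5 and 21.6 TPM. Ubp1, a CP2-family relative of Tfcp2l1 and the most abundant paralog in E14-Sox2TA/WT, was at 51.2 and 57.9 TPM.

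The genes around each member were compared with it, over genes within 1 Mb that reached 1 TPM in either library. Zfp42 had 2 such neighbors, Triml1 (8 and 733 reads) and Triml2 (26 and 1101 reads), and both were higher in E14-Sox2TA/WT with log2 ratios of 3.42 and 4.10. Around Nanog, 16 of 22 neighbors had higher values and the median was 1.01. The highest were Dppa3 (5.30 to 39.6 TPM) and Gdf3 (1.72 to 15.9 TPM), both of them expressed in ESCs and chosen for mention after their values were seen, and the same interval also held C-type lectin genes of myeloid cells such as Clec4n (10.01 to 25.4 TPM). All 6 neighbors of Nr0b1 had higher values, with a median of 0.58. By contrast, Klf2 stood among 53 genes with a median of -0.57, of which 9 had higher values and the highest log2 ratio was 1.07, and its chromosome had a median of -0.48. The medians around Esrrb, Klf4, Tfcp2l1, Prdm14 and Tbx3 lay between -0.52 and -0.05, and that around Klf5 was -0.43. Nanog, Zfp42 and Nr0b1 therefore had neighbors that were mostly higher, with only 2 for Zfp42 and 6 for Nr0b1, and Klf2 and 5 further higher genes did not. Over all 18558 genes that reached 1 TPM in either library, 47.5% had a log2 ratio above 0. The chromosome medians were -0.005 for Nanog, -0.48 for Zfp42 (the chromosome of Klf2) and 0.08 for Nr0b1.

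Several of these genes are also expressed in other cell types, so markers of those were summed in both libraries. The lists were chosen with earlier results of these data known. Beside their DEG counts stand the shares over all genes past the TPM limit, 10.8% higher and 18.7% lower. Of 10 germ cell genes, 8 had higher values, 5 were higher DEGs and the summed level went from 53.9 to 194 TPM. This list shares Dppa3 with the other naive and ESC genes and Tfap2c with the trophoblast genes. The germ cell RNA-binding gene Dazl went from 3.12 to 53.6 TPM and the meiotic gene Sycp3 from 0.342 to 26.0 TPM, whereas Nanos3 (10.9 to 6.17 TPM) and Kit (25.3 to 17.7 TPM) had lower values. Of 10 genes of primitive and visceral endoderm, all 10 had higher values, 5 were higher DEGs and the sum went from 80.8 to 477 TPM, led by Afp (0.614 to 151 TPM). Of 10 trophoblast genes, 9 had higher values and the sum went from 19.6 to 49.3 TPM, with Cdx2, Hand1, Gcm1, Tpbpa and Prl3d1 at 0 reads in E14, and 1 was a DEG, Tfap2c (2.26 to 19.7 TPM). That gene, also among the germ cell DEGs, was the 1 trophoblast gene to reach the TPM limit, past which 10.8% of genes were higher DEGs. Gata3 (8.91 to 3.08 TPM) was the trophoblast gene with the lower value. The part of these cell types in the levels of the naive factors was not tested.

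Marker genes of differentiated tissues were summed in the same way, and the same shares of 10.8% and 18.7% apply to their DEG counts. Of 12 genes of squamous epithelium, which expresses Klf4 and Klf5, 9 had higher values and 5 were higher DEGs, and the sum went from 270.3 to 770 TPM with Ivl at 0 reads in E14. Krt13 went from 14.9 to 197 TPM. The 3 genes with lower values were the basal cell factor Trp63 (6.96 and 6.43 TPM), Krt1 (1.63 and 1.32 TPM) and Lor (5.23 and 1.31 TPM). Of 10 intestinal genes, 9 had higher values, 1 was a DEG (Lgals4, 1.33 to 17.6 TPM), Cdx1, Cdx2 and Fabp2 were at 0 reads in E14, and the sum went from 72.0 to 111 TPM, most of it Epcam (64.6 and 72.4 TPM). Of 10 endothelial genes, in which Klf2 and Klf4 are active, 8 had higher values, none was a DEG and the sum was 111 and 128 TPM, with Pecam1 at 27.6 and 31.6 TPM and Tek at 2.21 and 6.44 TPM. Smooth muscle (8 genes, 1 higher DEG, sum 92.1 and 145 TPM) and macrophages (10 genes, 3 higher DEGs, sum 976 and 1664 TPM) had medians of 0.36 and 0.59. Tagln went from 15.0 to 63.2 TPM, Lyz2 from 457 to 943 TPM and Cd163 from 0.114 to 2.70 TPM. The 8 renal genes were near 0, with sums of 2.10 and 4.60 TPM, most of it Pax2 (2.07 and 2.63 TPM), 6 of them at 0 reads in E14 and Avpr2 at 0 reads in both. The part of these tissues in the results was not tested.

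**Figure D5:**
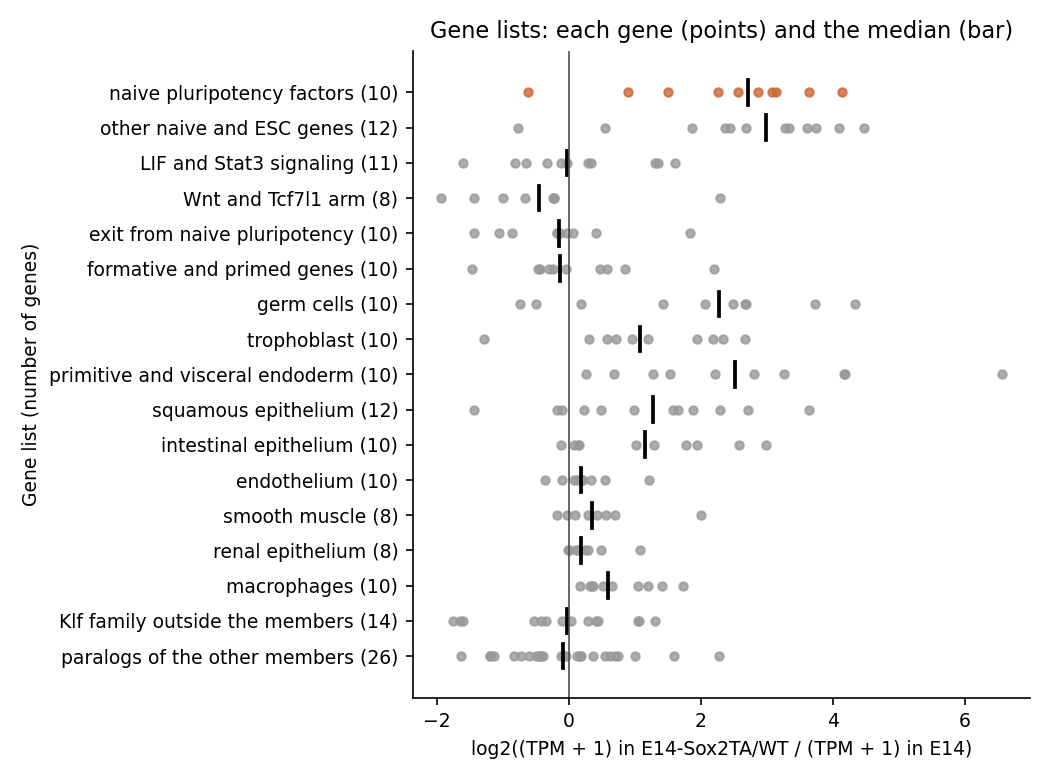
Log2 ratio of TPM + 1 between the E14-Sox2TA/WT and E14 libraries for every gene (points) of the naive pluripotency factors (orange) and of the compared gene lists (grey), with the median of each list as a black bar and the number of genes in parentheses. The naive factors (median 2.72), the other naive and ESC genes (2.99), primitive and visceral endoderm (2.51) and germ cells (2.28) have the highest medians, and the LIF, Wnt, exit, formative, Klf and paralog lists have medians between -0.45 and -0.03.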

How the data were processed

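The authors deposited, for 45777 genes, read counts, FPKM and TPM of 1 E14 and 1 E14-Sox2TA/WT teratoma library. The submitters' processing notes name bcl2fastq 2.20.0, Trimmomatic, HISAT2 2.1.0 and StringTie 2.1.3b, with hg19 and mm10 listed as builds; their roles, the counting tool and its use of strand are not given in the sources used here. RefSeq coordinates (GRCm38.p6) were matched by NCBI gene identifier for 45679 genes, and 98 had no match.

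The members and gene lists were chosen with earlier results of these data known. The ratio of deposited TPM was the main measure, with 1 TPM added for log2 ratios, and DEGs were genes with a fold above 2 and 10 TPM or more in either library, limits taken from the study's methods and applied here to the deposited TPM; whether the authors applied further filters is not known from the sources used here. No p-value was computed, since each group has 1 library. Intervals for levels and folds come from the read counts (95%, Clopper-Pearson), and for folds relative to Pou5f1 normal intervals of the log counts. A count of 0 was taken to allow 3 reads. The genes named were all members, Sox2, Pou5f1, the Klf genes that reached 10 TPM in either library, and pseudogene and antisense copies of members. From each list the most abundant and the most changed gene were named. Further genes of the lists and neighbors were chosen after their values were seen. Shared sequence was counted as identical stretches of 50 nt in GENCODE vM21 transcripts.

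Alternatives were the pseudocount, the TPM and fold limits, FPKM, and counts scaled in 3 ways (TMM factors from edgeR, median of ratios, library total). The scripts were tested on simulated data with 200 of 45777 genes changed. Protein sequences were not analysed here, and 1 gene of a list is not reported here. The software was R 4.3.3 with edgeR 4.0.16, and Python 3.11.15 with scipy 1.17.1, pandas 2.3.3, numpy 2.4.6 and matplotlib 3.10.9.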

Additional observations from a re-analysis of the deposited data

How the results depend on the processing

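The median log2 ratio of the naive factors, 2.72, was 3.26 with 0.1 TPM added in place of 1, 1.01 with 10 TPM added and 2.42 without Zfp42 and Klf2, the members on chromosome 8. It was between 2.90 and 3.02 under FPKM, the other scalings and centring, 2.98 over the 8 members with a TPM of at least 10, and 2.68 with Prdm14 at its lower bound, a setting chosen after seeing the data. The number of members past the rule, 6, was 7 under FPKM, every other scaling, centring or a fold limit of 1.5, where Tbx3 joined. It was 8 with a TPM limit of 1 or none, where Nr0b1 and Prdm14 joined, and 6 with a fold limit of 3. Klf5 counted as lower at a fold limit of 1.5. Of 70 values of single members under alternatives, 0 changed direction, but 37 moved outside the counting interval of the main value. A change of pseudocount cannot alter a direction, so those values are no check of it. The log2 ratio ranged from 0.58 to 5.65 for Prdm14 and from 1.14 to 4.18 for Tfcp2l1. Over all genes, 1253 higher and 2167 lower DEGs (63.4% lower) became 1583 and 1655 with FPKM (51.1%), 1578 and 1634 with the library total (50.9%) and 1557 and 1683 with centring (51.9%). They became 3585 and 3508 at a TPM limit of 1 (49.5%), 9156 and 6015 with no limit (39.6%), 2109 and 3742 at a fold of 1.5, and 663 and 1015 at a fold of 3. No paired analysis was possible because each group has 1 library, and leaving out a library was not possible for the same reason. At this depth, 0 reads for Prdm14 in E14 allows up to 0.0481 TPM.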

Other observations

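Genes of the 2-cell embryo, which small subpopulations of ESCs express and which many naive cultures contain, were examined as a list chosen after the data had been seen. Of 17 such genes, 14 were in the table and all 14 had higher values in E14-Sox2TA/WT, with 5 at 0 reads in E14. Together they had 124 reads in E14 and 8637 in E14-Sox2TA/WT, or 2.59 and 166 TPM, a 64.2-fold difference. Zscan4f, one of the telomere-associated Zscan4 genes, went from 0.823 to 44.2 TPM, and Zscan4c from 0.706 to 28.9 TPM. The Zscan4 and Usp17l genes are near-identical copies, so the split of reads between single copies is uncertain and the sums are the firmer values.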
